A study of Homo sapiens with 24 samples.

Results

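Fibroblast growth factors (FGFs) and their receptors were followed during the neural induction of human induced pluripotent stem cells (hiPSCs) with and without knockdown of *ROR2*, which encodes a receptor for WNT ligands. The set comprised 10 genes: the secreted ligands *FGF2*, *FGF8*, *FGF9* and *FGF19*, the FGF homologous factors *FGF13* and *FGF14*, and the receptors *FGFR1*, *FGFR2*, *FGFR3* and *FGFR4*. A gene was represented by the transcript cluster (the array's unit of measurement for a locus) that carries its symbol and no other, and where a gene had several such clusters, by the one with the highest mean over all 24 arrays. This rule gave a value for 8 of the 10 genes, out of 33616 genes measured in the same way. The only clusters of *FGF13* and *FGF14* also carry another symbol, so no value is given for either gene.

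Secreted FGFs bind receptor tyrosine kinases on the cell surface together with heparan sulphate, and the activated receptor signals through the adaptor FRS2, RAS and the kinase ERK, which in turn induces inhibitors of the pathway such as the Sprouty proteins. FGF2 is the factor that keeps human pluripotent cells undifferentiated in culture, and FGF8 from the anterior neural ridge and the isthmus patterns the forebrain and midbrain in the vertebrate embryo. FGF homologous factors stay inside the cell, where they modulate voltage-gated sodium channels, and FGF19 acts as a hormone that needs the coreceptor KLB.

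The cells were R-2A (HiPS-RIKEN-2A) hiPSCs, transduced with lentivirus and selected with puromycin, so that both lines carried a viral insert: 1 line expressed a short hairpin RNA (shRNA) that targets *ROR2* (*ROR2* KD cells), the other a non-mammalian control shRNA (control cells). They were taken undifferentiated, grown on iMatrix-511 in StemFit AK02 (day 0), and after 7, 14 and 21 days with the STEMdiff SMADi Neural Induction Kit, a monolayer protocol toward neural stem/progenitor cells (NS/PCs) with a passage every 7 days. Total RNA was measured on Clariom D arrays, with 3 biological replicates in each of the 8 combinations of line and day. Whether replicates came from separately transduced cells is not given, so p-values measure the spread between replicate samples, and other differences between the lines cannot be told apart from the knockdown. The paper's methods list more than 1 *ROR2* shRNA without naming the one used for the arrays, and do not describe day 0 arrays of these knockdown and control lines.

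All values below are log2 signals as deposited, so a difference of 1 is a 2-fold change in signal. A gene was called different at a limma adjusted p under 0.05 (Benjamini-Hochberg over 135750 transcript clusters) and a fold change above 2. Every array has 23 probe sets for background, and a signal counted as above background when it exceeded their 95th percentile, which lay between 7.30 and 9.97. *ROR2* itself was above it only in control cells on day 7, and was lower in *ROR2* KD cells by a log2 difference of -2.51 on day 0, -2.62 on day 7 and -2.56 on day 14 (adjusted p = 0.000165, 5.85e-05 and 1.98e-06). On day 21 the difference of -0.89 was not called (adjusted p = 0.0823). All 5 markers of pluripotent cells were above background on every array of day 0, and *POU5F1* was under background on every later array. On days 14 and 21 the neural markers *SOX1*, *SOX2*, *NES* and *HES5* were above background in both lines, and *PAX6* was too except in control cells on day 21. The measured markers of midbrain and isthmus, of neural crest, of astrocytes and oligodendrocytes, and of mesoderm and endoderm were under background on all 24 arrays.

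The members differed from one another in their courses. *ROR2* KD cells had less *FGF8* signal than control cells on days 7 and 14, on day 14 with control cells close to background. *FGFR2* was higher in them on day 14 alone, and *FGFR3* was lower on day 7, under background, and higher on days 14 and 21. *FGF9*, *FGF19*, *FGFR1* and *FGFR4* were called on no day, and *FGF2* missed the fold threshold on day 21. On day 0, 0 of the 8 measured members were called, against 0.0803% of all 33616 genes. Day 7 had 2 of 8, against 0.277% of all genes, day 14 had 3 of 8, against 1.7%, and day 21 had 1 of 8, against 4.67%. The arrays of the 2 lines did not overlap for 1, 2, 4 and 5 members on days 0, 7, 14 and 21, against 16%, 16.4%, 22.5% and 23.5% of all genes.

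**Figure D1:**
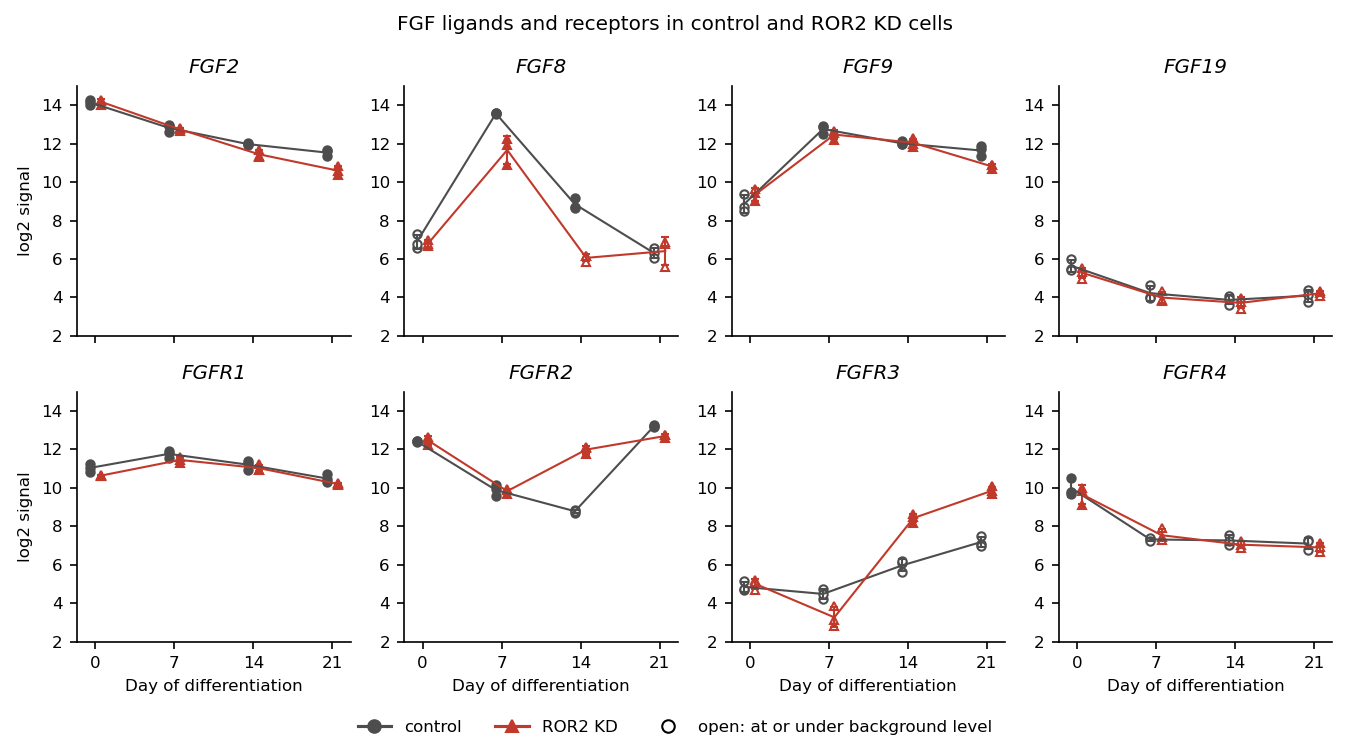
Log2 signal of the 8 measured FGF ligands and receptors against day of differentiation, in control (grey circles) and *ROR2* KD cells (red triangles). Points are single arrays, lines join the means with SD (n = 3) and open points lie at or under the background level of their array; *FGF8* peaked on day 7 at 13.57 in control and 11.67 in *ROR2* KD cells, and *FGFR2* on day 14 was at 8.78 against 11.99.

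*FGF2* (chr4:122826682-122898236, RefSeq genes on GRCh38.p14, as for all positions given) was above background on all 24 arrays and declined through the differentiation. On day 0 the control arrays gave 14.28, 14.01 and 14.17 and the *ROR2* KD arrays 14.24, 14.03 and 14.26, so the lines overlapped. By day 21 the control arrays were at 11.65, 11.62 and 11.34 and the *ROR2* KD arrays at 10.81, 10.36 and 10.60, and every *ROR2* KD array was below every control array. From day 0 to day 7 *FGF2* fell in both lines, by 1.33 in control cells and by 1.44 in *ROR2* KD cells (SE 0.18, adjusted p = 4.24e-06 and 1.70e-06). From day 7 to day 14 it fell by 1.30 in *ROR2* KD cells (adjusted p = 3.20e-05), while the control difference of -0.85 (adjusted p = 0.00525) stayed under 2-fold. From day 0 to day 21 the total decrease was -2.62 in control cells and -3.59 in *ROR2* KD cells (adjusted p = 7.92e-11 and 2.30e-13). In order of level, the lines of a day were neighbours on days 0 and 7, with differences of 0.03 and 0.08 that were within the spread (adjusted p = 0.982 and 0.922), and *ROR2* KD cells of day 14 stood beside control cells of day 21 (11.45 and 11.53, adjusted p = 0.859).

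Between the lines, *FGF2* differed by -0.53 on day 14 (95% CI -0.91 to -0.16, adjusted p = 0.402) and by -0.94 on day 21 (95% CI -1.32 to -0.57, adjusted p = 0.00302), where the signal of *ROR2* KD cells was 52.0% of that of control cells. The day 21 difference passed the p threshold but not the fold threshold, and it passed both without control replicate 3 (-1.04, adjusted p = 0.00460) or without *ROR2* KD replicate 1 (-1.05, adjusted p = 0.00366). The change in the line difference from day 14 to day 21 was -0.41 and was not called (adjusted p = 0.947). Over the 24 arrays the genes whose log2 signal was most like that of *FGF2* were *MFGE8* (Pearson r = 0.99), *CTSV* (0.99) and *CLDN10* (0.99), a description over arrays that share groups, as for every such r given here.

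*FGF8* (chr10:101770109-101780369) showed a transient peak. It was under background on all 6 arrays of day 0, at 6.57 to 7.30 in control and 6.65 to 6.98 in *ROR2* KD cells. On day 7 the control arrays gave 13.57, 13.53 and 13.61 and the *ROR2* KD arrays 12.23, 11.91 and 10.87, all above background. The control arrays of day 7 lay within 0.08 of each other and above every *ROR2* KD array, whose SD was 0.71. By day 14 the control arrays, at 8.72, 8.66 and 9.16, were only slightly above their background levels of 8.64, 8.54 and 8.87. The *ROR2* KD arrays, at 5.85, 6.16 and 6.15, were under their background levels, which were lower (7.77, 7.76 and 8.07). On day 21 both lines were under background, at means of 6.31 ± 0.27 and 6.41 ± 0.71 (SD, n = 3), and their arrays overlapped.

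The rise of *FGF8* from day 0 to day 7 had a log2 difference of 6.68 in control cells and 4.86 in *ROR2* KD cells (SE 0.32, adjusted p = 1.64e-13 and 4.97e-11). Because day 0 was under background, these are stated as at least 15.4-fold and at least 5.17-fold higher. Such a bound sets the mean of the bright group against that of the dim group, with each dim array raised to its background level. The bound is used in this sense throughout. From day 7 to day 14 *FGF8* fell by 4.72 in control cells and by 5.62 in *ROR2* KD cells (adjusted p = 5.33e-10 and 1.62e-11), the latter at least 13.9-fold. From day 14 to day 21 it fell by 2.54 in control cells (adjusted p = 1.05e-05, at least 1.43-fold), and in *ROR2* KD cells, already under background, the difference was 0.35 (adjusted p = 0.598).

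Between the lines, *FGF8* in *ROR2* KD cells was lower by a log2 difference of -1.90 on day 7 (SE 0.32, 95% CI -2.56 to -1.24, adjusted p = 0.00744), or 26.8% of the control signal. The change in the line difference from day 0 to day 7, -1.82, was not called (SE 0.45, adjusted p = 0.167). A fit restricted to the 6 arrays of day 7 gave the line difference of that day an adjusted p of 0.178. *ROR2* KD replicates 2 and 3 of day 7 are among the 4 arrays with the highest medians, and without those 4 arrays the day 7 difference was -1.34 (adjusted p = 0.143). Leaving out 1 array of day 7 at a time gave -2.18 to -1.50, called each time. On day 14 the difference was -2.79 (95% CI -3.46 to -2.13, adjusted p = 1.23e-05), stated as at least 1.97-fold lower in *ROR2* KD cells, and without any 1 array it was -2.89 to -2.64. By day 21 the difference was 0.10 (95% CI -0.56 to 0.76, adjusted p = 0.963), and the change from day 14 was 2.89 (SE 0.45, adjusted p = 0.00107).

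The 8 group levels of *FGF8* ran from control day 7 (13.57) through *ROR2* KD day 7 (11.67) and control day 14 (8.85) to the 5 remaining groups, which were all under background at 6.05 to 6.89 and of which no neighbours in that order differed beyond their spread. The genes most like *FGF8* over the 24 arrays were *CTNNBIP1* (r = 0.98), *CDON* (0.95) and *IFIT1* (0.95). *CDON*, whose product is a cell-surface coreceptor for hedgehog ligands, was above background on all 24 arrays, *CTNNBIP1* on 6 and *IFIT1* on 4.

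*FGF9* (chr13:21671073-21704498) rose by day 7 and stayed high. Its day 0 arrays gave 8.72, 8.47 and 9.36 in control cells, all under background, and 9.66, 9.0005 and 9.41 in *ROR2* KD cells, of which 2 were above. On day 7 the values were 12.87, 12.90 and 12.52 in control cells and 12.21, 12.57 and 12.64 in *ROR2* KD cells, and the lines overlapped on both days. *FGF9* was thus higher on day 7 than on day 0 by 3.91 in control cells (at least 8.78-fold) and by 3.12 in *ROR2* KD cells (SE 0.23, adjusted p = 8.68e-12 and 5.03e-10). On day 14 the means were 12.02 ± 0.09 and 12.04 ± 0.22, a difference of 0.03 (95% CI -0.46 to 0.51). From day 14 to day 21 *FGF9* fell by 1.24 in *ROR2* KD cells (adjusted p = 0.00125), while the control difference was -0.37 (adjusted p = 0.464). At day 21 the control arrays gave 11.89, 11.70 and 11.34 and the *ROR2* KD arrays 10.87, 10.66 and 10.89, which did not overlap, yet the difference of -0.84 missed the threshold (95% CI -1.32 to -0.35, adjusted p = 0.0643). The change in the line difference from day 14 to day 21, -0.86, was not called either (adjusted p = 0.599). In the order of the 8 levels, the 6 groups of days 7 to 21 stood above both groups of day 0. No neighbours among those 6 differed at an adjusted p under 0.05. *PCM1* (r = 0.98), *FAT1* (0.98) and *ZKSCAN8* (0.97), each above background on all 24 arrays, were the genes most like *FGF9*.

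*FGF19* (chr11:69698238-69704022) was above background on 0 of 24 arrays, with values between 3.41 and 6.01. Its signal on day 0, at means of 5.65 ± 0.32 in control and 5.27 ± 0.28 in *ROR2* KD cells, was higher than on day 7 by 1.43 and 1.28 (adjusted p = 8.76e-05 and 0.000325), but both days were under background and no fold is given. The background level was itself higher on day 0 (8.96 to 9.97) than on the later days (7.30 to 8.87), and the part of this in low signals of day 0 was not tested. After day 7 no neighbouring groups of *FGF19* in the order of level differed beyond their spread.

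*FGFR1*, on chromosome 8, varied least among the members above background. It was above background on all 24 arrays and its group means spanned 1.57 log2 units, from 11.77 ± 0.18 in control cells on day 7 to 10.20 ± 0.03 in *ROR2* KD cells on day 21. On day 7 it gave 11.82, 11.92 and 11.57 in control cells and 11.63, 11.44 and 11.29 in *ROR2* KD cells, with an overlap of 1 array between the lines. No change of *FGFR1* between neighbouring days reached 2-fold in either line: from day 0 to day 7 it was 0.74 higher in control and 0.82 higher in *ROR2* KD cells (adjusted p = 0.00486 and 0.00203), and from day 14 to day 21 it was lower by -0.72 and -0.83 (adjusted p = 0.0229 and 0.00656). The mean of *ROR2* KD cells was lower on each day, by -0.40, -0.32, -0.18 and -0.29 (SE 0.19), and none of these was called. On day 0, where the arrays of the lines did not overlap, the interval of the difference was -0.79 to -0.01 (adjusted p = 0.486). In the order of the 8 levels no neighbouring pair of *FGFR1* differed at an adjusted p under 0.05.

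*FGFR2* (chr10:121478330-121598458, minus strand) was high in undifferentiated cells, low in the middle of the differentiation and high again at its end. On day 0 the control arrays gave 12.43, 12.37 and 12.45 and the *ROR2* KD arrays 12.63, 12.23 and 12.54. On day 7 they were at 10.12, 9.96 and 9.58 and at 9.93, 9.87 and 9.68, so that the lines overlapped on both days. On day 14 the control arrays were at 8.69, 8.85 and 8.80, 2 of them above background, and the *ROR2* KD arrays at 11.76, 12.13 and 12.09. This was the widest separation of the lines for any member, with every *ROR2* KD array more than 2 log2 units above every control array. By day 21 the control arrays, at 13.26, 13.21 and 13.14, had passed the *ROR2* KD arrays, at 12.73, 12.78 and 12.59, again without overlap.

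From day 0 to day 7 *FGFR2* fell by 2.53 in control cells and by 2.64 in *ROR2* KD cells (SE 0.18, adjusted p = 2.05e-10 and 1.21e-10), and the change in the line difference was -0.11 (95% CI -0.64 to 0.43, adjusted p = 0.939). Between days 7 and 14 the lines moved in opposite directions. Control cells fell by 1.11 (adjusted p = 0.000324) and *ROR2* KD cells rose by 2.16 (adjusted p = 1.57e-08), a change in the line difference of 3.27 (SE 0.26, adjusted p = 1.52e-07). The control fall was under 2-fold without control replicate 1 of day 7. From day 14 to day 21 control cells rose by 4.42, or 21.5-fold from a level close to background (adjusted p = 1.18e-13). *ROR2* KD cells were 0.71 higher, under 2-fold (adjusted p = 0.0172), a change in the line difference of -3.72 (SE 0.26, adjusted p = 8.19e-09). The rise of *FGFR2* was therefore called between days 7 and 14 in *ROR2* KD cells and between days 14 and 21 in control cells.

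On day 14 *FGFR2* was higher in *ROR2* KD cells by 3.21 (SE 0.18, 95% CI 2.83 to 3.59, adjusted p = 2.32e-10), a 9.25-fold difference. The difference was 3.14 to 3.33 without any 1 array. The control arrays of that day were close to their background levels of 8.64, 8.54 and 8.87, so the fold is approximate. On day 21 the difference of -0.51 was not called (95% CI -0.88 to -0.13, adjusted p = 0.213). In the order of level, control and *ROR2* KD cells of day 21, those of day 0 and *ROR2* KD cells of day 14 came first. No neighbours among these 5 groups differed at an adjusted p under 0.05. Every *ROR2* KD array of day 14 was below every control array of day 0, but the difference missed the p threshold (means 11.99 and 12.42, adjusted p = 0.0914). *ROR2* KD cells of day 14 were below control cells of day 21 by 1.22 (adjusted p = 0.000123). Control cells of day 14, at 8.78, were the lowest of the 8 groups, 1.05 below *ROR2* KD cells of day 7 (adjusted p = 0.000611). No gene followed *FGFR2* as closely as others followed the ligands: *RGS2* (r = 0.89), *RUNX1T1* (0.89) and *DBN1* (0.88) were the most alike over the 24 arrays.

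*FGFR3* (chr4:1793293-1808867, plus strand) was the member whose line difference was called on most days. In control cells it was under background on every array: at 4.66, 4.75 and 5.14 on day 0, at 4.21, 4.73 and 4.50 on day 7, at 5.61, 6.10 and 6.18 on day 14 and at 7.10, 7.48 and 6.96 on day 21. *ROR2* KD cells were under background on days 0 (4.70, 5.21 and 5.11) and 7 (3.84, 3.12 and 2.83) and above it on all 6 arrays of days 14 (8.19, 8.63 and 8.46) and 21 (9.68, 10.08 and 9.82). On days 14 and 21 every *ROR2* KD array was thus above every control array. The difference between the lines was 2.46 on day 14 (SE 0.25, 95% CI 1.93 to 2.99, adjusted p = 2.76e-06) and 2.68 on day 21 (95% CI 2.149 to 3.20, adjusted p = 2.40e-07). With control cells under background, day 21 is stated as at least 2.89-fold higher, and no fold is given for day 14, where the bound was under 1. Leaving out 1 array at a time gave 2.29 to 2.58 and 2.57 to 2.82, all called.

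From day 7 to day 14 *FGFR3* rose by 5.16 in *ROR2* KD cells (adjusted p = 1.30e-12, at least 1.10-fold) and by 1.43 from day 14 to day 21 (adjusted p = 0.000635). In control cells it was higher by 1.48 and 1.22 over the same intervals (adjusted p = 0.000507 and 0.00385), all under background. The change in the line difference was called from day 7 to day 14 (3.68, SE 0.36, adjusted p = 4.14e-06) and was 0.21 from day 14 to day 21 (95% CI -0.53 to 0.96). The 3 highest group levels, *ROR2* KD day 21, *ROR2* KD day 14 and control day 21, each differed from the next by 1.43, 1.24 and 1.22 (adjusted p = 0.000635, 0.00365 and 0.00385). On day 7 the *FGFR3* difference was -1.22 (adjusted p = 0.0410), with all 6 arrays under background. That call was lost without any 1 of the control arrays or of *ROR2* KD replicates 2 and 3 of day 7 (-1.35 to -1.001, adjusted p = 0.0835 to 0.246), and without the 4 arrays with the highest medians (-0.64, adjusted p = 0.587). *CPEB2* (r = 0.97), *WNT7A* (0.97), which encodes a WNT ligand, and *EPHA3* (0.96) were most like *FGFR3* over the 24 arrays. These 3 genes were above background on 9, 6 and 12 arrays and *FGFR3* on 6, so each r includes many values under background.

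*FGFR2* and *FGFR3* were the receptors higher in *ROR2* KD cells on day 14, and their promoters are shown for this reason. RefSeq promoters on GRCh38.p14, 250 bases before to 50 after a start listed there, were given for 6 of the 10 genes. The window of *FGFR2* is chr10:121598395-121598694 on the minus strand, the most upstream of 5 in the table, whose start lies slightly downstream of the gene's outer end given above, and that of *FGFR3* is chr4:1793043-1793342 on the plus strand. Capitals mark the GC box, GGGCGG or its reverse complement CCGCCC, the motif bound by SP family factors.
FGFR2: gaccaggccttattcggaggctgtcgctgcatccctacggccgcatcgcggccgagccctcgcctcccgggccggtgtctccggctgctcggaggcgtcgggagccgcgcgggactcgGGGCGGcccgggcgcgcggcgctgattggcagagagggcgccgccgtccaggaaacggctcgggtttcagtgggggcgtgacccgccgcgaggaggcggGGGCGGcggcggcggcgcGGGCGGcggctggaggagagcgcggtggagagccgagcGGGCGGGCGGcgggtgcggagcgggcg
FGFR3: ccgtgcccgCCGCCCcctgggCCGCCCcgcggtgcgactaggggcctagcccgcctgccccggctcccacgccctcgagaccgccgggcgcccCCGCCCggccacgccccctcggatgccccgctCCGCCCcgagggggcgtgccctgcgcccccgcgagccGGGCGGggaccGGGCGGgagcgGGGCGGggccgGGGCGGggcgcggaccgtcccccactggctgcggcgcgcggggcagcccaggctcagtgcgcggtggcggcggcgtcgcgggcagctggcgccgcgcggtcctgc
Both windows were rich in G and C, at 79.3% and 86.3% against a median of 58.7% over 35116 promoters of 300 bases. The GC box was found on either strand 5 times in *FGFR2*, where 2 matches overlap in the run GGGCGGGCGG, and 8 times in *FGFR3*. It was found at least once in 45.0% of all promoters. At least as many matches as in *FGFR2* were found in 5.14% of all promoters, and at least as many as in *FGFR3* in 0.812%. The E box CANNTG, bound by basic helix-loop-helix factors, was found 0 times in *FGFR2* and once in *FGFR3* and is in 68.7% of all promoters. The homeodomain core TAATTA was found in neither and is in 4.84% of all promoters. A match of letters is a description of the window, and factor binding was not measured.

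*FGFR4* (chr5:177086915-177098144) was above background in the undifferentiated cells alone. Its 6 arrays of day 0 were above background, at 10.53, 9.68 and 9.77 in control and 10.003, 9.09 and 9.85 in *ROR2* KD cells, and 0 of 18 later arrays were. From day 0 to day 7 it fell by 2.68 in control cells (at least 2.78-fold) and by 2.11 in *ROR2* KD cells (at least 2.56-fold), with adjusted p = 3.27e-08 and 1.43e-06. From day 7 on, its means lay between 6.90 and 7.54 and no neighbouring groups differed beyond their spread. The line differences were -0.35, 0.22, -0.22 and -0.20 on days 0, 7, 14 and 21, none of them called. *MARCHF3*, *MIR622* and *RASL11B* (r = 0.98 each) were most like *FGFR4*, and *MARCHF3* and *MIR622* were above background on 0 arrays.

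**Figure D2:**
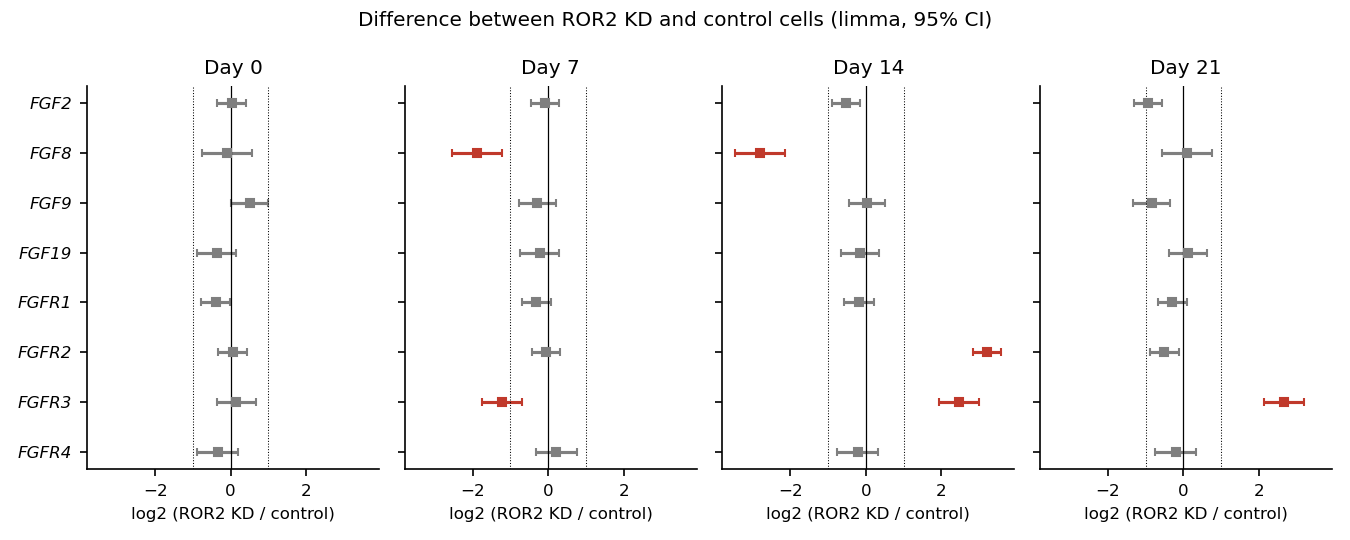
Difference in log2 signal between *ROR2* KD and control cells for the 8 measured members on each day, with the 95% confidence interval from limma; red marks called genes and dotted lines mark a 2-fold change. The day 0 intervals all lie between the dotted lines, and the called differences are *FGF8* on days 7 and 14 (-1.90 and -2.79), *FGFR2* on day 14 (3.21) and *FGFR3* on days 7, 14 and 21 (-1.22, 2.46 and 2.68).

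Over time, most members changed between day 0 and day 7, when 6 of 8 were called in control cells and 7 of 8 in *ROR2* KD cells, against 27.6% and 25.7% of all genes. From day 7 to day 14, 3 members were called in control cells (7.07% of all genes) and 4 in *ROR2* KD cells (8.89%). From day 14 to day 21, 3 were called in control cells (7.34%) and 2 in *ROR2* KD cells (8.96%). The change in the line difference itself was called for 0 members from day 0 to day 7 (0.0744% of all genes), for *FGFR2* and *FGFR3* from day 7 to day 14 (0.875%), and for *FGF8* and *FGFR2* from day 14 to day 21 (1.38%). 

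In these bulk samples, fewer cells of a type and less RNA per cell cannot be told apart. On day 14 *FGFR2* and *FGFR3* were higher and *FGF8* lower in *ROR2* KD cells. Of 5 listed markers of neurons, 4 were measured and 4 of 4 were also higher on that day, against 0.934% of all genes. The differences of *STMN2*, *DCX*, *GAP43* and *INA* were 1.73, 1.22, 1.74 and 1.71. The mean of this list was 12.70 to 12.82 on the control arrays and 14.33 to 14.44 on the *ROR2* KD arrays, and *GAP43* was under background in control cells. The mean of the 5 NS/PC markers was 13.07 to 13.44 on the control arrays and 13.56 to 13.66 on the *ROR2* KD arrays of that day, with *PAX6* higher by 2.23 and the other 4 not called. By day 21 the neuron list was at 15.12 to 15.29 and 15.92 to 16.08, and 1 of its 4 measured markers, *GAP43*, was called higher (2.16% of all genes). The NS/PC list was at 11.99 to 12.19 and 13.57 to 13.80, and *PAX6*, under background in control cells, was at least 153-fold higher in *ROR2* KD cells. The median of the 5 NS/PC differences on day 21 was -0.86: *NES* was lower by -1.08, and *SOX2* (-0.86), *HES5* (-1.10) and *SOX1* (0.30) were not called. Of 3 measured markers of the telencephalon out of 4 listed, 0 were called up to day 14 and *SIX3* was higher by 3.17 on day 21. The part of these markers in the differences of *FGF8*, *FGFR2* and *FGFR3* was not tested.

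Of the 93 further genes of the pathway in 10 lists, 81 had a value. None of the other ligands was called between the lines on any day. The 12 other paracrine ligands, the 2 other endocrine ligands *FGF21* and *FGF23* and the homologous factors *FGF11* and *FGF12* were under background on every array, except *FGF7* on 1 *ROR2* KD array of day 21. The medians of the 12 paracrine differences were -0.04, -0.03, -0.01 and -0.06 on days 0, 7, 14 and 21, beside -0.10, 0.01, -0.03 and -0.02 for all genes. Of the ligands with a value, *FGF2*, *FGF8* and *FGF9* were thus the ones above background on all arrays of at least 1 group. Of 6 coreceptors and receptor-like genes, 0 were called before day 21, and *KLB*, which FGF19 needs, and *KL* were under background on all arrays.

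Among genes for proteins that bind or present FGFs, a minority was called on days 14 and 21. Of 3 genes for FGF binding proteins, 1 was called: *FGFBP3*, which encodes a secreted carrier that releases FGFs from the matrix, had a lower signal after knockdown on day 14 (13.06 ± 0.06 in control and 11.43 ± 0.22 in *ROR2* KD cells, difference -1.64, adjusted p = 6.69e-05) and on day 21 (12.59 ± 0.13 and 10.27 ± 0.17, -2.32, adjusted p = 1.23e-07). *FLRT3*, whose product binds FGF receptors and enhances their signal in the frog embryo, was lower on day 21 (-2.07, adjusted p = 0.00578), and *FLRT2* was higher (1.26) with both lines under background. Of 21 measured genes for heparan sulphate carriers and enzymes, 3 were higher and 1 lower on day 14 and 4 were higher and 4 lower on day 21, with median differences of -0.03 and -0.20. Of all genes, 0.934% were higher and 0.77% lower on day 14, and 2.16% were higher and 2.51% lower on day 21. The glypican *GPC4* was at 9.74 ± 0.20 in control and 12.81 ± 0.11 in *ROR2* KD cells on day 14 (3.07, adjusted p = 5.25e-10) and 13.35 ± 0.27 and 14.73 ± 0.12 on day 21 (1.38, adjusted p = 4.23e-05). *NDST3* and *NDST4*, which encode enzymes that modify heparan sulphate chains, were higher on day 14 (1.65 and 1.78) and on day 21 (2.31 and 2.04). On day 14 *NDST3* was under background in control cells. Its *ROR2* KD mean of 8.44 was itself under the background levels of the control arrays (8.54 to 8.87). The glypicans *GPC3* (-3.52) and *GPC6* (-3.32) were lower on day 21, with *GPC3* above background on 1 of 3 *ROR2* KD arrays. *SULF1*, which encodes a sulphatase that trims heparan sulphate, was lower on day 14 (-1.13) and on day 21 (-3.23). Also called on day 21 were the syndecan *SDC1*, lower by -1.27 with both lines under background, and *HS6ST2*, a sulphotransferase gene, higher by 1.29.

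Inside the cell, no adaptor or kinase of the cascade was called between the lines, whereas most genes induced by ERK were on day 14. Of 14 measured adaptors and kinases, out of 22 listed, 0 were called on any of the 4 days, and their medians were -0.08, -0.09, 0.18 and -0.02. Of 14 feedback inhibitors and targets of ERK, 10 were lower and 1 higher in *ROR2* KD cells on day 14, against 0.77% and 0.934% of all genes. Their median was -1.39 beside -0.03 for all genes, and 0 were called on day 0 or day 7. *SPRY1*, a Sprouty inhibitor of receptor signalling, was at 14.37 in control and 9.003 in *ROR2* KD cells on day 14 (-5.36, SE 0.23, adjusted p = 2.34e-12), with all arrays above background. *DUSP6*, the ERK phosphatase, was lower by -3.28 (at least 1.99-fold, adjusted p = 2.17e-07), *ETV5*, an ETS factor downstream of FGF, by -3.46 (at least 3.59-fold, adjusted p = 3.54e-08), and *SPRY4* by -3.22 with both lines under background. The exception was *EGR1*, an immediate early gene, which was higher by 1.42 (at least 1.95-fold, adjusted p = 0.0304). Between days 7 and 14, 11 of the 14 fell in *ROR2* KD cells and 9 in control cells, against 3.73% and 3.1% of all genes. From day 14 to day 21, 5 fell in *ROR2* KD cells and 10 in control cells, against 5.75% and 4.69%. On day 21, 2 of the 14 were higher in *ROR2* KD cells (*ETV5* 3.001 and *EGR1* 2.04, under background in both lines) and 2 were lower. The lower ones were *IL17RD*, which encodes a receptor-like inhibitor of FGF signalling, by -1.54, and *SPRY1* by -1.15, the latter under background in both. The median of the 14 was 0.09, and of all genes 2.16% were higher and 2.51% lower on that day. On day 14, then, lower *FGF8*, close to background in control cells, and lower ERK targets stood beside higher *FGFR2* and *FGFR3* in *ROR2* KD cells.

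**Figure D3:**
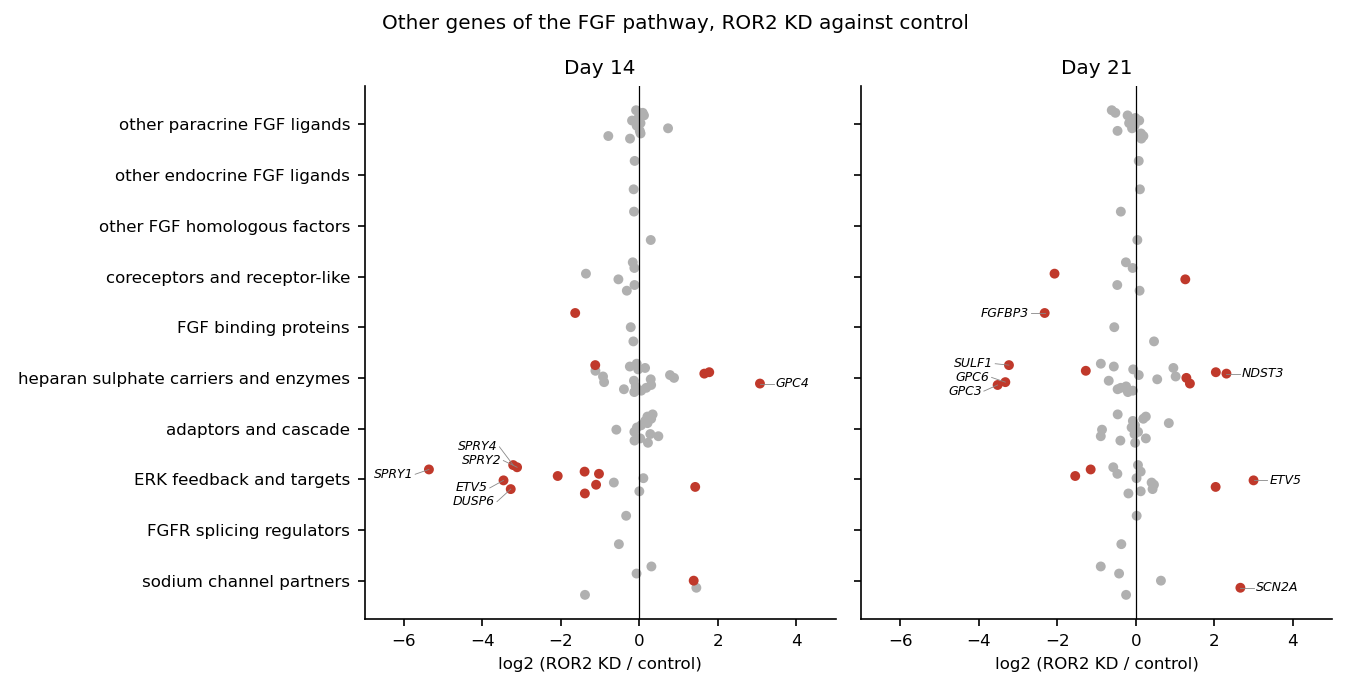
Difference in log2 signal between *ROR2* KD and control cells on days 14 and 21 for 81 further genes of the FGF pathway, 1 point per gene, grouped by list; red marks called genes, and those beyond 2.2 are named. Of 14 ERK targets, 10 were called lower and 1, *EGR1*, higher on day 14 (median -1.39), against 2 lower and 2 higher on day 21 (median 0.09), and none of the other ligands was called on either day.

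The splicing factor *ESRP1*, which favours the epithelial IIIb exon of *FGFR2*, was at 16.81 in both lines on day 0 and had a lower signal after knockdown on day 7 (11.39 ± 0.12 in control and 8.43 ± 0.73 in *ROR2* KD cells, -2.965, adjusted p = 0.000124), with 1 of 3 *ROR2* KD arrays above background. By day 14 it was under background in both lines. The value of *FGFR2* covers the whole transcript cluster and does not separate its IIIb and IIIc forms. Among the sodium channels that FGF homologous factors bind, 5 of 6 had a value, and *SCN3A* on day 14 (1.38, adjusted p = 0.00141) and *SCN2A* on day 21 (2.67, adjusted p = 2.43e-05) were higher in *ROR2* KD cells. Each was above background in *ROR2* KD cells and not in control cells on that day. For *SCN3A* the *ROR2* KD mean was 7.99. The background level of day 14 was 7.76 to 8.07 on the *ROR2* KD arrays and 8.54 to 8.87 on the control arrays.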

How the data were processed

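RNA of 24 samples was measured on Clariom D arrays. The deposited values are log2 signals that the authors made with RMA (background correction, normalization across arrays and 1 summary per transcript cluster) in Transcriptome Analysis Console, and they were used unchanged. The value table has 138745 probe sets, of which 2995 are controls of the array and were not tested. The platform annotation gave 36176 clusters 1 gene symbol and 1119 several, and no gene was named from the latter, which left out *FGF13* and *FGF14*. Conditions, days and replicate numbers came from the sample labels, 0 columns were unmapped and 0 pairs of arrays were identical. Array medians lay between 4.26 and 4.51, and arrays of a group correlated at 0.963 to 0.987. The number of arrays limits the precision.

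The 24 arrays entered 1 limma fit (version 3.58.1, R 4.3.3) with a mean for each of the 8 groups, with 16 residual and 6.36 prior degrees of freedom, and p-values are two-sided. Contrasts were *ROR2* KD minus control at each day, neighbouring days within a line, and the differences of the former between neighbouring days. The model was tested on simulated data. Members, pathway lists, marker lists and tests were chosen with earlier results of these data known. The genes named are the 10 members, up to 4 called genes per list, day and direction with the largest fold change, all cell type markers described, and, for members whose group means span over 2 log2 units, the 3 most alike genes by Pearson correlation. *POU5F1*, *KL*, *KLB* and *FGF7* were named after their values were seen. Replicate numbers were checked for pairing and not used as a block: residuals of arrays with the same number in both lines correlated at -0.03 to 0.16, and 6 of 12 were best with their own number. Alternatives were a replicate block, only the arrays compared, median centring, quantile normalization, and a variance trend with robust moderation. Others were a t-test on each pair of groups, a filter on dim clusters, only clusters with a symbol, and the mean over a gene's clusters. The remaining ones were no fold threshold, the 4 arrays with the highest medians left out, and each array left out in turn.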

Additional observations from a re-analysis of the deposited data

Results flagged for a closer look

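For 3 members the test of the change in the line difference between neighbouring days passed the threshold, so that the *ROR2* KD and control cells followed different courses. From day 7 to day 14 the difference of *FGFR2* changed by 3.27 (SE 0.26, adjusted p = 1.52e-07) and that of *FGFR3* by 3.68 (SE 0.36, adjusted p = 4.14e-06). From day 14 to day 21 the difference of *FGFR2* changed by -3.72 (SE 0.26, adjusted p = 8.19e-09) and that of *FGF8* by 2.89 (SE 0.45, adjusted p = 0.00107). Control cells were under background for *FGFR3* on both days 7 and 14, and for *FGF8* the arrays of day 21 and of *ROR2* KD cells on day 14 were under background.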

How the results depend on the processing

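No called difference reversed. Of 348 values under alternatives that kept all replicates or left out the 4 arrays with the highest medians, 336 kept their side of the threshold, 10 lost it and 2 gained it. Of 192 with 1 array left out, 185 kept it, 5 lost it, all of them values of *FGFR3* on day 7, and 2 gained it. Both sets cover 32 line differences, most of which were not called in the main fit. Most values that kept their side were thus differences that stayed uncalled, and only a called difference could lose the threshold. After adjustment, a t-test on each pair of groups called 0 members on days 7, 14 and 21 (2, 4 and 4 of 8 at an unadjusted p under 0.05). It called 1 from day 7 to day 14 in control cells, and in *ROR2* KD cells 4 from day 0 to day 7 and 0 from day 14 to day 21. This t-test was not run for changes in the line difference. The paper names a t-test for comparing 2 groups, but credits its adjusted p-values for array data to Transcriptome Analysis Console. On day 7 the count of 2 became 0 with only the arrays compared, where fewer arrays estimate the spread, and 0 without the 4 arrays with the highest medians, which leaves 1 *ROR2* KD array of that day, whose spread is then taken from the remaining groups. On day 21 the count of 1 became 2 (*FGF2* and *FGFR3*) without those arrays and with no fold threshold, and with no fold threshold the count in *ROR2* KD cells from day 14 to day 21 became 5. The filter on dim clusters, which tested 20709 clusters and dropped *FGF19*, called 2 changes in the line difference from day 0 to day 7 (*FGF8* and *FGFR3*). With 1 array left out, counts were 1 to 2 on day 7, 1 to 2 on day 21, 2 to 3 from day 7 to day 14 in control cells and 0 to 2 for the change in the line difference from day 0 to day 7, the 2 (*FGF8* and *FGFR3*) without *ROR2* KD replicate 1 of day 7. The replicate block changed no call of a member: with it the day 7, 14 and 21 counts were 2, 3 and 1, and *FGF8* on day 7 had an adjusted p of 0.0121. Signals under background limit *FGF19* on all arrays, *FGFR3* in control cells and in *ROR2* KD cells on days 0 and 7, *FGFR4* after day 0, and *FGF8* on days 0 and 21 and in *ROR2* KD cells on day 14. Control signals close to background limit *FGF8* and *FGFR2* on day 14.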
